A study of Mus musculus with 12 samples.

Results

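Kinetochore and centromere genes were followed in brain and spleen of mice with and without the noncoding RNA Norad. The 32 genes were picked by symbol from the 24062 genes measured in both tissues, and all 32 were found. They encode the protein at the heart of the centromere (Cenpa), a protein that binds centromere DNA (Cenpb), 12 subunits of the constitutive centromere-associated network, the MIS12, KNL1, NDC80 and SKA complexes, and 4 proteins of the outer corona. Cenpj carries a CENP name, but its protein (also called CPAP) builds centrioles, and it was kept as the rule gives it. The KNL1 scaffold is listed under its older symbol, Casc5.

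Poly(A) RNA was sequenced from brain and spleen of Norad+/+ and Norad-/- mice. All were male C57BL/6 animals of 10 weeks, and there were 3 libraries for each tissue and genotype, 12 in all. The deletion was made by CRISPR/Cas9 in the germline and is present in every cell, and several knockout lines were established, but the sample records do not say which line each mouse came from. Nor do they say whether brain and spleen with 1 replicate number came from 1 animal.

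The kinetochore joins a chromosome to spindle microtubules during cell division. A centromere is marked by nucleosomes that hold CENP-A. The constitutive network sits on these nucleosomes throughout the cell cycle and recruits MIS12, KNL1 and NDC80, of which NDC80 grips the microtubule, SKA steadies that grip, and the corona helps to capture microtubules and to hold back anaphase until every chromosome is attached. Most of these genes are expressed mainly in dividing cells, of which an adult spleen holds many and an adult brain few. Norad binds PUMILIO proteins, which repress mRNAs that carry PUMILIO response elements (PREs) in the 3’ UTR, and the study asked whether genes needed for mitosis are repressed when Norad is lost.

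Norad itself, listed as 2900097C17Rik, marked the genotypes without exception. In brain it stood at 206, 259 and 635 FPKM (fragments per kilobase of transcript, scaled to the reads mapped in each library) in Norad+/+ replicates 1 to 3 and at or below 0.0121 in every Norad-/- library. In spleen it stood at 62.0, 42.9 and 56.3 FPKM in Norad+/+ and at or below 0.0173 in Norad-/-. Summed markers of spleen cells reached 4385 to 6056 FPKM in spleen and at most 20.8 in brain, and summed markers of neurons and glia 3798 to 4031 in brain and at most 51.5 in spleen. Depths estimated from the values were 28.3 to 36.5 M reads. Some libraries stood apart. Norad+/+ brain replicate 3 had the lowest median rank correlation with the other brain libraries (0.949, others 0.973 to 0.979). Among spleens, Norad+/+ spleen replicate 3 had the lowest (0.948, others 0.961 to 0.971). That spleen library held pancreas and liver transcripts (280.7 and 96.0 FPKM summed, against at most 9.55 and 0.492 in the other spleens). Norad-/- brain replicate 3 held pituitary transcripts (1324 FPKM summed, against at most 1.44 in the other brains).

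Promoters of 7 members are shown, all those whose window held both TTTGAA and CCAAT, words to which regulators of cell cycle genes bind. Each runs from 250 bases before to 50 bases after the start annotated by RefSeq (GRCm38.p6), on the strand of the gene, with capitals on TTTGAA, the cell cycle genes homology region to which the DREAM and MuvB complexes bind, and on CCAAT, the site of NF-Y, or on either word read from the other strand (TTCAAA for the first word and ATTGG for the second). In Cenpl capitals also mark the E2F-like words described after the sequences. In Cenpw the CCAAT and TTCAAA words share 1 base, and in the other 6 windows the words do not overlap.
Cenpa, chr5:30666636-30666935, plus strand: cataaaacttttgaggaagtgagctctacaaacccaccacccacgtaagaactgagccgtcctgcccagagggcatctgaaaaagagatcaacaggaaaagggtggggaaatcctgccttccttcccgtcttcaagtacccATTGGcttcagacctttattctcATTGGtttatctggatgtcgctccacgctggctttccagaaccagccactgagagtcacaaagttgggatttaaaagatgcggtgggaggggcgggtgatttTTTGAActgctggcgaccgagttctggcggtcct
Cenpf, chr1:189688037-189688336, minus strand: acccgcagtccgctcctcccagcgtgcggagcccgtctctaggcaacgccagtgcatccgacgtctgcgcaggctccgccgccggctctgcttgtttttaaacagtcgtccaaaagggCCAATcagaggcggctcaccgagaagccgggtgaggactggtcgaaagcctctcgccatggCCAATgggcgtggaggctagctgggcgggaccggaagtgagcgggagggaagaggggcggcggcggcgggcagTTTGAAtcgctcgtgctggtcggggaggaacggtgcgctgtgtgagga
Cenpl, chr1:161070517-161070816, plus strand: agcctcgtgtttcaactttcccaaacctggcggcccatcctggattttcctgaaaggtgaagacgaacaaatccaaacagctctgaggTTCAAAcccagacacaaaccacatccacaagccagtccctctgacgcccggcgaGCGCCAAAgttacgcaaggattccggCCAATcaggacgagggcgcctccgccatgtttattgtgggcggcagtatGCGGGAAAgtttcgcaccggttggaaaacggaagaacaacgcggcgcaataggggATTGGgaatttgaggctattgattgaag
Cenpn, chr8:116921490-116921789, plus strand: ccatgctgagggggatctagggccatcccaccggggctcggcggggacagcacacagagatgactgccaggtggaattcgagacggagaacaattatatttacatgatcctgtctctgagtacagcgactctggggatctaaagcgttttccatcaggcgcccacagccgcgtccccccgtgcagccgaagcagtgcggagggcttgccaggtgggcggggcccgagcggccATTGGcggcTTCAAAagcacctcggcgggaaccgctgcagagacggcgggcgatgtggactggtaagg
Cenpw, chr10:30200491-30200790, minus strand: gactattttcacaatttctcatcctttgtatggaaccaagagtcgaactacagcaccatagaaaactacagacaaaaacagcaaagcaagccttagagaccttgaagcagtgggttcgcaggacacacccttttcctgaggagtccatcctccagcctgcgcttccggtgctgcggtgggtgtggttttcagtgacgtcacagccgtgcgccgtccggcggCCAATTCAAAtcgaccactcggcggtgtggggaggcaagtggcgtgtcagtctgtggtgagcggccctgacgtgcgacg
Pmf1, chr3:88410348-88410647, minus strand: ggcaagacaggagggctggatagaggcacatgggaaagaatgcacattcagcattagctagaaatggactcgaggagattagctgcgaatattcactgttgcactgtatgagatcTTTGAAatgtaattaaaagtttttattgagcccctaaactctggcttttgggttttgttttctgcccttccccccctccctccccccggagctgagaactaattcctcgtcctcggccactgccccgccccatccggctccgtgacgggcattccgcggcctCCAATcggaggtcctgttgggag
Spc25, chr2:69206164-69206463, minus strand: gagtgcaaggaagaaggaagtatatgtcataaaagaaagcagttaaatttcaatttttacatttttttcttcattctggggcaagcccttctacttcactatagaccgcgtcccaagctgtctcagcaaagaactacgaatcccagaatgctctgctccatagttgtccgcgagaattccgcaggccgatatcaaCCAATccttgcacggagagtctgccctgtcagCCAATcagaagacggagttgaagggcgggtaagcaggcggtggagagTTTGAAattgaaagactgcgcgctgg

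Windows were found for 28 of the 32 members and for 11589 of the 14967 genes tested in either tissue. TTTGAA, searched on both strands, was present for 11 of 28 members (39.3%) and for 14.2% of all these genes. CCAAT was present for 60.7% of members and 42.2% of genes, and both words in 1 window for 25% of members (Cenpa, Cenpf, Cenpl, Cenpn, Cenpw, Pmf1 and Spc25) and 5.64% of genes. An E2F-like word (TTTCCCGC, TTTGGCGC, TTTCGCGC or TTTGCCGC, either strand) was present for 14.3% of members (Cenpb, Cenpl, Cenpm and Dsn1) and 4.35% of genes. A word in a window is a description of its letters. Cenpj, Cenpo, Cenpp, Cenpt and Nuf2 held none of these words. Of the 11 members with TTTGAA, 9 were under 1 FPKM in brain, and of the 17 members with a window but no TTTGAA, 5 were. The same shares were not counted over all genes, and a link between the word and the level in brain was not tested.

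PREs are shown because PUMILIO binding is what Norad is known to limit, for all 4 members with 2 or more. Each line gives 30 bases of the longest annotated 3’ UTR (GENCODE, GRCm38) on the strand of the mRNA, written as DNA, with the PRE (UGUANAUA in RNA, where N is any base) in capitals.
Spc25 site 1, chr2:69194381-69194410, minus strand: ttctttgttacTGTATATAtccagaggaat
Spc25 site 2, chr2:69194076-69194105, minus strand: taatttattccTGTAAATAtattcttcaca
Cenpc1 site 1, chr5:86012226-86012255, minus strand: ataaatgtgtaTGTATATAaaatacgttgt
Cenpc1 site 2, chr5:86012078-86012107, minus strand: ttttccttgagTGTAAATActgtgtttagt
Cenpl site 1, chr1:161083496-161083525, plus strand: caaatgtttggTGTATATAtatatatatat
Cenpl site 2, chr1:161084528-161084557, plus strand: tctgtcctattTGTACATActtatgggcat
Ska2 site 1, chr11:87122188-87122217, plus strand: aaataaagcaaTGTAAATActgatacccag
Ska2 site 2, chr11:87122729-87122758, plus strand: acttacttgtaTGTATATActgtccagttt

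At least 1 PRE was found in 11 of the 32 members (34.4%), against 27.1% of 14012 genes with an annotated 3’ UTR. Cenpc1, Cenpl, Spc25 and Ska2 held 2 or more (12.5% of members, 8.75% of genes), and Cenpf, Cenpi, Cenpk, Cenpo, Cenpq, Casc5 and Ska3 held 1. The 3’ UTRs of members were shorter than usual, with a median of 832 bases against 1208 bases. Most members, 21 of 32, carried no PRE in this window.

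The level of these genes differed widely between the tissues. All 6 spleen libraries lay above all 6 brain libraries for 26 of 32 members (81.2%), whereas 40.4% of 14967 genes tested in either tissue did so. The tissues come in separate tables, so their levels are set side by side without a test. The widest gaps were those of Ska1, a microtubule-binding subunit of the SKA complex (median 0.0420 FPKM in brain and 3.89 in spleen, 92.6 times), Ndc80, which contacts the microtubule (0.0947 and 7.14 FPKM, 75.4 times), and Casc5, the scaffold for checkpoint proteins (0.0506 and 3.44 FPKM, 67.9 times). Cenpa stood at 0.449 FPKM in brain and 16.7 in spleen (37.2 times) and Cenpf, a large corona protein, at 0.114 and 4.22 FPKM (37.1 times).

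**Figure D1:**
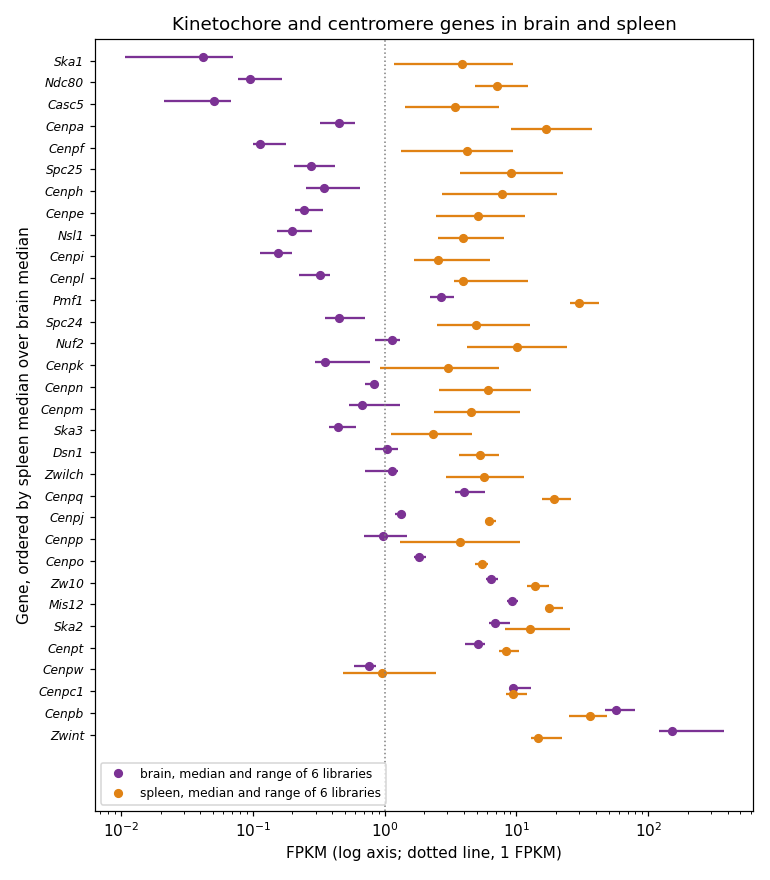
FPKM (log axis) of the 32 genes in brain and spleen, each as the median (point) and range (line) of 6 libraries, ordered by spleen median over brain median. Ska1 has the widest gap (0.0420 against 3.89 FPKM), and Zwint, at the foot, is the only one whose 6 brain libraries all lie above the 6 spleen libraries.

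Zwint, which links KNL1 to the corona, went the other way. Its brain median was 151.9 FPKM and its spleen median 14.7, so that brain stood 10.3 times higher, and it was the only member (3.12%) with all brain libraries above all spleen libraries, as 35.6% of all genes were. In brain it measured 120.8, 146.1 and 372.8 FPKM in Norad+/+ and 146.4, 157.4 and 160.0 in Norad-/-. The high value is that of Norad+/+ replicate 3, the library that stood apart, and the other 5 lie close together. It is described because its level is unlike the rest, a choice made after its values were seen.

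The tissues overlapped for the 5 remaining genes. Cenpc1, the backbone of the constitutive network, had nearly the same median in both (9.39 FPKM in brain and 9.44 in spleen). Cenpb was at 57.5 FPKM in brain and 36.0 in spleen, Ska2 at 6.87 and 12.8, Cenpp at 0.977 and 3.76, and Cenpw, a histone-fold subunit, at 0.762 and 0.960.

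In spleen, the highest medians were those of Cenpb, the MIS12 subunit Pmf1 (29.9 FPKM), Cenpq (19.4 FPKM), the MIS12 subunit Mis12 (17.8 FPKM) and Cenpa, and the lowest those of Cenpw, Ska3 (2.32 FPKM) and Cenpi (2.53 FPKM). Subunits of 1 complex were not at 1 level. Within NDC80, the spleen medians were 10.2 FPKM for Nuf2, 9.07 for Spc25, 7.14 for Ndc80 and 4.95 for Spc24, but their ranges over the 6 libraries overlapped, from 4.19 to 24.1 FPKM for Nuf2 and from 2.48 to 12.6 for Spc24. Within MIS12 they were 29.9 FPKM for Pmf1, 17.8 for Mis12, 5.28 for Dsn1 and 3.94 for Nsl1, and the ranges of Pmf1 (25.4 to 42.3 FPKM) and Mis12 (16.8 to 22.7) did not overlap with each other or with those of Dsn1 (3.70 to 7.43) and Nsl1 (2.55 to 8.05), which did.

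In Norad-/- spleen most of these genes were lower, though none passed the test. With limma, 0 of 32 members passed an adjusted p of 0.05 (smallest adjusted p = 0.152), as 0.0323% of 12397 genes did. At an unadjusted p of 0.05 or less, 20 of 32 members were lower (62.5%) and 0 higher, against 13.6% of all genes lower and 7.42% higher. The log2 fold change (negative where Norad-/- was lower) lay below 0 for 30 members, with a median of -0.85 against -0.02 for all genes. In bulk tissue, fewer dividing cells and less of each RNA per cell cannot be told apart.

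**Figure D2:**
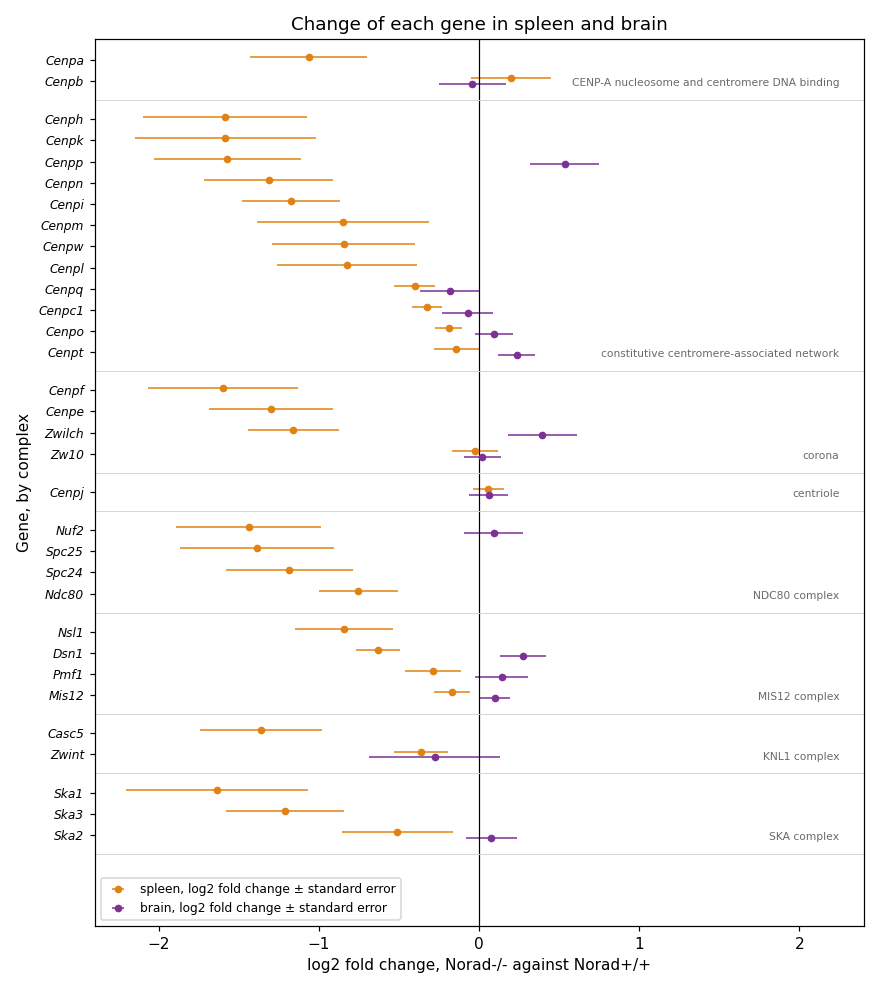
Log2 fold change (positive where Norad-/- is higher) for each gene in spleen (32 genes) and in brain (the 15 genes tested), grouped by complex, with standard errors. Spleen values run from -1.64 to 0.20 and brain values from -0.28 to 0.53.

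Groups that did not overlap were fewer. All 3 Norad-/- spleens lay below all 3 Norad+/+ spleens for 10 members (31.2%; Cenpc1, Cenpe, Cenpf, Cenpi, Cenpo, Cenpp, Cenpq, Dsn1, Zwilch and Casc5), against 14.9% of all genes, and all 3 lay above for 0 members, against 11.6%. The spread between replicates was wide: in spleen the members were highest in Norad+/+ replicate 3 for 31 of 32 genes, Norad-/- replicates 1 and 2 were the lowest pair for 24, and Norad-/- replicate 3 lay above Norad+/+ replicate 1 for 21.

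**Figure D3:**
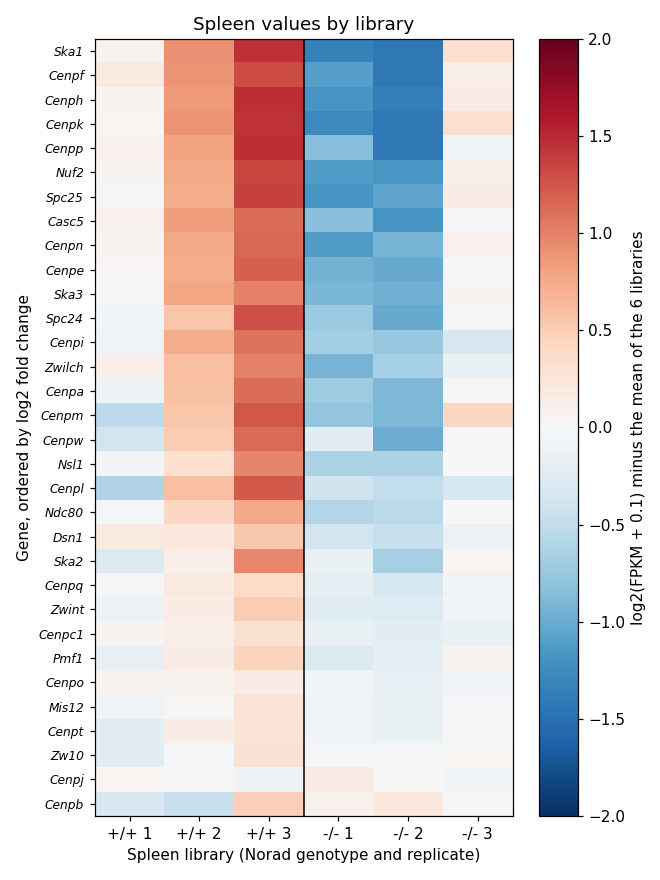
Each of the 32 genes (rows, ordered by log2 fold change) in the 6 spleen libraries (columns), as log2(FPKM + 0.1) minus the mean of the 6 libraries, from blue (lower) to red (higher). Norad+/+ replicate 3 is the highest for 31 genes, Norad-/- replicates 1 and 2 are the lowest pair for 24, and Norad-/- replicate 3 is close to Norad+/+ replicate 1.

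At the centromere itself, Cenpa measured 16.0, 25.7 and 37.3 FPKM in Norad+/+ spleen and 10.4, 9.14 and 17.4 in Norad-/-. The groups overlapped, since Norad-/- replicate 3 was above Norad+/+ replicate 1. Its log2 fold change was -1.06 (SE 0.37, adjusted p = 0.198). Cenpb, which is not confined to dividing cells, was at 0.20 (adjusted p = 0.67), and at 0.49 without Norad+/+ replicate 3.

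All 12 subunits of the constitutive network lay below 0, and 7 of them had an unadjusted p of 0.05 or less (median -0.85). Cenpi, needed to load new CENP-A, had the smallest p of the group, at 2.77, 4.95 and 6.31 FPKM in Norad+/+ and 1.79, 1.68 and 2.28 in Norad-/-. The Norad-/- values were close to one another and all below the lowest Norad+/+ value. Its log2 fold change was -1.18 (SE 0.31, adjusted p = 0.171). The log2 fold changes of the other 6 were -1.59 for Cenph, -1.58 for Cenpk, -1.57 for Cenpp, -1.31 for Cenpn, -0.40 for Cenpq and -0.33 for Cenpc1. The other members of the network were Cenpm (-0.85), Cenpw (-0.85), Cenpl (-0.83), Cenpo (-0.19) and Cenpt (-0.14).

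Of the MIS12 complex, which bridges the inner and outer kinetochore, Dsn1 had the smallest p of all members in spleen. It measured 5.88, 5.93 and 7.43 FPKM in Norad+/+ and 3.94, 3.70 and 4.67 in Norad-/-. The groups did not overlap, and the log2 fold change was -0.63 (SE 0.14, adjusted p = 0.152). Dsn1 (chr2:156995265-157007154) lies 602 kb from Norad (chr2:156388065-156392979) in GRCm38, the nearest of the members on that chromosome. Nsl1 was at -0.85, and Pmf1 (-0.29) and Mis12 (-0.17) had an unadjusted p above 0.05.

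Of the KNL1 complex, Casc5 measured 3.56, 6.05 and 7.41 FPKM in Norad+/+ spleen and 1.83, 1.42 and 3.31 in Norad-/-, with the highest Norad-/- value just under the lowest Norad+/+ value. Its log2 fold change was -1.36 (SE 0.38, adjusted p = 0.178), and that of its partner Zwint was -0.36 (SE 0.17, adjusted p = 0.272).

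All 4 subunits of NDC80 had an unadjusted p of 0.05 or less, with a median of -1.29. Nuf2, which pairs with Ndc80 at the microtubule end, measured 9.93, 16.2 and 24.1 FPKM in Norad+/+ and 4.32, 4.19 and 10.4 in Norad-/-. Replicate 3 of Norad-/- exceeded replicate 1 of Norad+/+, so the groups overlapped, and the log2 fold change was -1.44 (SE 0.45, adjusted p = 0.187). Spc25 (-1.39) and Spc24 (-1.19), form the pair at the inner end, and Ndc80 was at -0.75.

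Of the SKA complex, Ska3 measured 2.296, 3.96 and 4.60 FPKM in Norad+/+ and 1.15, 1.11 and 2.35 in Norad-/-. Its groups overlapped only through Norad-/- replicate 3, and its log2 fold change was -1.21 (SE 0.37, adjusted p = 0.186). Ska1 was at -1.64, the lowest value of the 32 members, while Ska2 was at -0.51 with an unadjusted p above 0.05.

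In the corona, Zwilch, a subunit of the complex that brings dynein and the checkpoint to the kinetochore, measured 6.20, 8.62 and 11.5 FPKM in Norad+/+ and 2.93, 3.53 and 5.09 in Norad-/-. The groups did not overlap, and the log2 fold change was -1.16 (SE 0.28, adjusted p = 0.16). The kinesin Cenpe was at -1.30 and Cenpf at -1.60. Zw10, a partner of Zwilch that also acts in membrane traffic outside mitosis, was at -0.02, and its sign depended on the scaling of the libraries (0.10 after rescaling to TPM).

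Cenpj, the centriole protein, measured 6.38, 6.17 and 5.76 FPKM in Norad+/+ spleen and 6.96, 6.16 and 5.97 in Norad-/-, with overlapping groups and a log2 fold change of 0.06 (SE 0.10, adjusted p = 0.765).

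**Figure D4:**
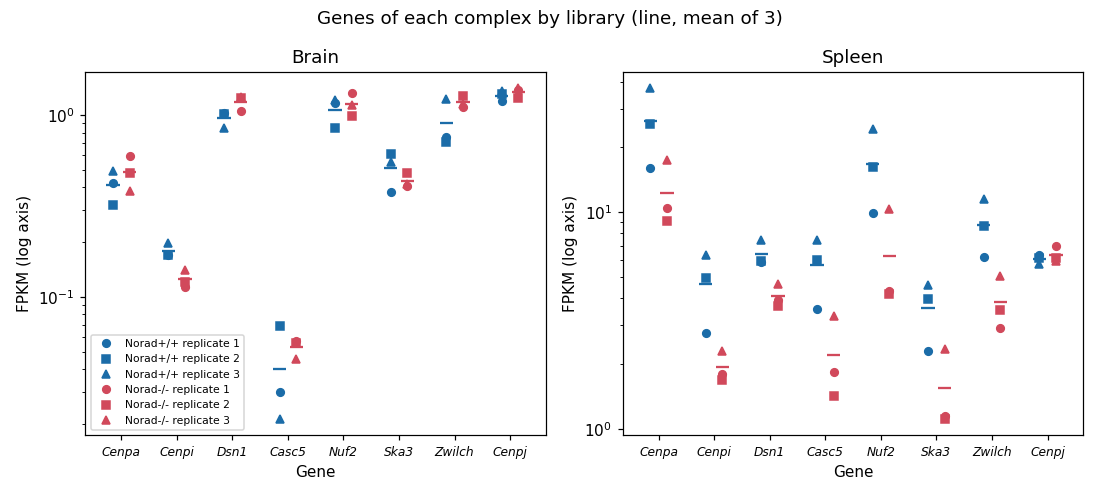
FPKM (log axes) of Cenpj and of 1 gene from each of the other 7 groups in the brain (left) and spleen (right) libraries, with marker shapes for replicates 1 to 3 and a line at the mean of 3. In spleen the Norad-/- libraries of Cenpi, Dsn1, Casc5 and Zwilch all lie below the Norad+/+ libraries, and in brain Casc5 stays at or below 0.0688 FPKM.

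The difference in spleen was larger among the members that were low in brain. The 17 members with a mean under 1 FPKM in brain all lay below 0 in spleen, with a median of -1.21 (from -1.64 to -0.75), and 14 of them had an unadjusted p of 0.05 or less. The 15 members with a mean of 1 FPKM or more in brain had a median of -0.33, 13 lay below 0 and 6 had such a p. Members with a PRE had a median of -1.18 in spleen (8 of 11 lower at an unadjusted p of 0.05 or less) and members without one -0.85 (12 of 21). Members with TTTGAA in the promoter window had a median of -1.06 (7 of 11) and those without -0.51 (9 of 17). These splits overlap with one another. Of the 11 members with a PRE, 7 were under 1 FPKM in brain, as were 9 of the 11 with TTTGAA. No split was tested. Nor was any made for genes outside the members, so these counts lack a baseline. Whether the pattern is particular to the members, or shared by other genes low in brain, was not tested.

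Markers of dividing cells moved with these genes. Their list (10 genes, none at 0 in all 6 libraries) summed to 271.5, 486 and 718 FPKM in Norad+/+ spleens and 130.3, 130.3 and 321 in Norad-/- spleens. All 10 lay below 0 (median -1.45), 9 with an unadjusted p of 0.05 or less, among them Mki67 (-1.82, adjusted p = 0.19) and Top2a (-1.33, adjusted p = 0.186). Markers of red cell precursors (19 genes) summed to 809, 2015 and 2743 FPKM in Norad+/+ and 81.0, 64.7 and 1107 in Norad-/-. All 19 lay below 0 (median -3.80), 18 with such a p. Of all genes tested in spleen, 13.6% were lower with such a p. The 32 members themselves summed to 271.3, 359 and 501 FPKM in Norad+/+ and 228, 220.1 and 293 in Norad-/-, with the libraries in the same order as for the red cell precursors. Germinal centre B cell markers (6 genes), another dividing population, summed to 34.6 to 37.9 FPKM in Norad+/+ and 41.2 to 49.5 in Norad-/-, with 5 of 6 above 0.

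**Figure D5:**
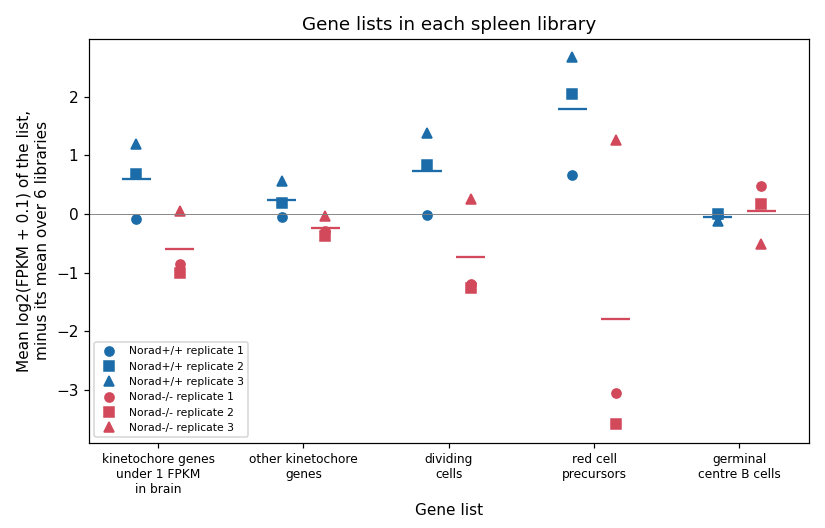
Mean log2(FPKM + 0.1) of 5 gene lists in each spleen library, minus its mean over the 6 libraries, with marker shapes for replicates 1 to 3 and a line at the mean of each genotype. Kinetochore genes under 1 FPKM in brain, dividing cell markers and red cell precursor markers are all highest in Norad+/+ replicate 3 and lowest in Norad-/- replicates 1 and 2, with Norad-/- replicate 3 above Norad+/+ replicate 1.

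With the mean level of the red cell precursor list as a covariate, the median of the 32 members was -0.21 and 0 were lower at an unadjusted p of 0.05 or less (smallest adjusted p = 0.849 for Dsn1 with limma). With the dividing cell list as the covariate, an alternative added after seeing the data, the median was -0.09, 0 were lower and 1 was higher (Cenpm, 0.64). Both lists differed between the genotypes in these 6 spleens, so that such fits share out 1 difference. The count of members lower at an unadjusted p of 0.05 or less was also sensitive to single libraries. It was 7 without Norad-/- replicate 2, 9 without Norad-/- replicate 1, 9 without Norad+/+ replicate 3 and 11 without Norad+/+ replicate 2, and 19 without both replicates 3.

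In brain the differences were smaller and went both ways. The 15 members that reached a mean of 1 FPKM were tested, and 0 passed (smallest adjusted p = 0.718), against 0.0153% of 13051 genes. At an unadjusted p of 0.05 or less, 0 were lower (2.89% of all genes) and 1 was higher (6.67% of the 15 members, 3.73% of all genes). The median log2 fold change was 0.09, against 0.02 for all genes, with 4 members below 0 and 11 above.

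The 1 member with such a p was Cenpp, a subunit of the constitutive network, at 0.766, 1.01 and 0.701 FPKM in Norad+/+ and 0.943, 1.32 and 1.49 in Norad-/-. The groups overlapped, and the log2 fold change was 0.53 (SE 0.22, adjusted p = 0.718). The unadjusted p rose above 0.05 without Norad+/+ replicate 1, without Norad+/+ replicate 3, without Norad-/- replicate 2 or without Norad-/- replicate 3.

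All 3 Norad-/- brains lay above all 3 Norad+/+ brains for 2 tested members (13.3%; Cenpt and Dsn1), against 10.6% of all genes, and below for 0, against 6.56%. Cenpt, the subunit that recruits NDC80, measured 5.04, 4.77 and 4.04 FPKM in Norad+/+ and 5.34, 5.20 and 5.76 in Norad-/- (log2 fold change 0.23, SE 0.11, adjusted p = 0.718). Dsn1 measured 1.02, 1.01 and 0.845 FPKM in Norad+/+ and 1.05, 1.24 and 1.26 in Norad-/- (0.28, SE 0.14, adjusted p = 0.718). In both genes the lowest Norad+/+ value was that of replicate 3, and the gap between the groups was small.

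Zwilch measured 0.755, 0.713 and 1.23 FPKM in Norad+/+ brain and 1.11, 1.27 and 1.16 in Norad-/-. Here Norad+/+ replicate 3 lay among the Norad-/- libraries, and the log2 fold change of 0.39 (SE 0.22) became 0.62 without it. Mis12 measured 8.50, 8.93 and 9.58 FPKM in Norad+/+ and 9.13, 9.53 and 10.3 in Norad-/- (0.10, SE 0.10). Cenpq measured 3.77, 4.04 and 5.76 FPKM in Norad+/+ and 3.43, 4.01 and 4.29 in Norad-/- (-0.18, SE 0.18). The genotypes overlapped for all 3 genes. The other 9 tested members had log2 fold changes from -0.28 (Zwint) to 0.14 (Pmf1).

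The other 17 members had a mean under 1 FPKM in brain, and 16 of them were under 1 FPKM in every brain library; the exception was Cenpm, at up to 1.32 FPKM. Their values rest on few reads. Fitted without the filter, Cenpl (0.40), Ska1 (0.35) and Cenpi (-0.32) had an unadjusted p of 0.05 or less, and the adjusted p of the 17 was at least 0.728. Cenpi measured 0.170, 0.171 and 0.199 FPKM in Norad+/+ and 0.114, 0.121 and 0.140 in Norad-/-. Dividing cell markers were low as well, at 17.6 to 19.2 FPKM summed over the 6 brain libraries, with Mki67 at or below 0.463 FPKM.

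Whether the genotype difference itself differed between the tissues was tested for the 15 members above 1 FPKM in both. With limma, 0 passed (0.0191% of 10481 genes did), and 4 had a spleen difference below the brain difference at an unadjusted p of 0.05 or less (26.7% of the 15, 10.1% of all genes). Dsn1 was at -0.91 (SE 0.20, adjusted p = 0.177), Zwilch at -1.55 (SE 0.38, adjusted p = 0.199), Cenpp at -2.11 (SE 0.54, adjusted p = 0.208) and Nuf2 at -1.53 (SE 0.52, adjusted p = 0.254). Each of these values is the log2 fold change in spleen minus that in brain. All 4 genes lay above 0 in brain and below 0 in spleen, with Nuf2 nearest to 0 in brain (0.09).

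Other genes of the kinetochore and centromere, a list of 32 that holds the spindle checkpoint, the chromosomal passenger complex and the loaders of CENP-A, was taken from outside the 32 members. Of 12397 genes tested in spleen, 6669 lay below 0, 13.6% were lower at an unadjusted p of 0.05 or less and 0.0323% passed. In the list, read from the same spleens as the members, 29 of 32 lay below 0 (median -0.81). In it 21 were lower at such a p and 0 passed. With limma, the 4 with the smallest p were Bub1b, Ttk, Sgol2 and Nup107. The checkpoint proteins Bub1b and Ttk were at -0.92 (adjusted p = 0.159) and -1.26 (adjusted p = 0.175). Sgol2, which shields centromeric cohesin, was at -1.01 (adjusted p = 0.177), and the nuclear pore protein Nup107 at -0.35 (adjusted p = 0.178). Nup107 measured 13.2, 13.1 and 15.5 FPKM in Norad+/+ and 10.4 to 11.4 in Norad-/-, and was the only one of the 4 whose Norad-/- replicate 3 was the lowest library. In brain, 5861 of 13051 genes lay below 0, 3.73% were higher at an unadjusted p of 0.05 or less and 0.0153% passed. Of the list, 18 were tested there, 11 lay below 0 (median -0.03) and 0 passed. The 4 with the smallest p there were Mis18a, a loader of CENP-A (0.32, adjusted p = 0.71), Bod1 (0.35), Ncapd3 (0.20) and Clasp2 (-0.75), of which Mis18a had an unadjusted p of 0.05 or less.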

How the data were processed

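RNA-seq values of 12 libraries were used, 3 for each tissue and genotype. The authors removed low-quality reads, mapped reads to GRCm38 using TopHat2 2.0.12 and kept uniquely mapped reads, and their own counts and tests (featureCounts 1.4.6, edgeR 3.8.6) were not used here. FPKM values were deposited in 1 table per tissue, made with StringTie 1.2.2 per the submitters' processing notes. The annotation behind them is not given in the sources used here. FPKM are already scaled to depth and length, so no count test was run, and library size, composition or gene models can move them. Libraries were assigned by the titles of the samples, and 0 value columns belong to no sample.

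The scale was log2(FPKM + 0.1), on which a low gene changes by less than its true fold. Where the 6 libraries of a tissue averaged 1 FPKM or more, the genotypes were compared by limma 3.58.1 (R 4.3.3; variance trend, two-sided), with Benjamini-Hochberg adjustment for each tissue and a threshold of 0.05. The difference between tissues was an interaction term over 12 libraries. That fit used the same variance for both tissues. The median within-group SD of members (log2) was 0.51 in spleen and 0.16 in brain, a difference its p-values do not account for. With 3 libraries per group, p-values set the genotype difference against the spread between these libraries, which limma draws toward a trend over all genes. Members and lists were chosen with earlier results of these data known, so no set was tested and counts are read beside all genes. Values by library are given for the member of each complex with the smallest p in spleen, the 6 members with the smallest p in brain, and up to 4 other genes with the smallest p. Zwint and the unfiltered brain values were chosen after values were seen.

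Depth was estimated from genes with 1 transcript at 0.1 FPKM or less, as the read total between 10 and 60 M reads that made most values whole within 2% (45.3% to 49.9% of values). A multiple of the true total fits at least as well, so the lowest total that reached 90% of the best share was taken, a rule set after a first search gave 56.7 M (52% whole) for Norad+/+ brain replicate 3, where 28.3 M is used (49.6%). Depth enters no test, and low values rest on few reads. In a simulation that shifted 200 genes by a log2 value of 1, the brain fit recovered 69% and the spleen fit 68%. The shifted genes were picked at random from all genes, with noise drawn independently for each gene. The spleen members instead moved together between libraries with a wide spread, so these shares do not hold for them. Motifs were counted in Python 3.11.15. Alternatives were other pseudocounts, filters, scalings, variance models, covariates, a replicate block and leaving out libraries. The covariate of dividing cells and the removal of both replicates 3 were added after seeing the data.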

Additional observations from a re-analysis of the deposited data

How the results depend on the processing

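Of the alternatives to the spleen result, 20 of 32 members were lower at an unadjusted p of 0.05 or less with other pseudocounts (0.01 and 1 FPKM), a filter at 0.5 FPKM or none, both rescalings and both variance models. The count was 12 with a filter at 5 FPKM, which tests fewer genes, and 0 with either covariate, where the median of -0.85 became -0.21 (red cell precursors) and -0.088 (dividing cells). Leaving out 1 library gave counts from 7 (without Norad-/- replicate 2) to 26 (without Norad+/+ replicate 1) and medians from -1.33 to -0.57. Higher members were 0 except for 1 with the dividing cell covariate (Cenpm) and 1 without Norad+/+ replicate 3 or without both replicates 3 (Cenpb), so leaving out 1 library gave 0 to 1. Rescaling to TPM moved the median of all spleen genes from -0.02 to 0.10 and that of members to -0.73, and the cause of other moves was not tested. Genes called in spleen were 4, then 2 with no filter, TPM or quantile scaling, 1 with either covariate, and from 2 to 93 (without Norad-/- replicate 3) with 1 library left out. In brain, members lower were 0 and with no filter 1, members higher were 1, 3 with no filter and 0 at 5 FPKM, and 0 to 1 with 1 library left out. Genes called in brain were 2, 1 (without Norad+/+ replicate 1) to 15 (without Norad+/+ replicate 3) with 1 left out and 25 without both replicates 3. The interaction called 2 genes, 0 with a filter at 0.5 FPKM and 0 to 130 (without Norad-/- spleen replicate 3) with 1 left out.

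Some single genes changed sign. In spleen with the red cell precursor covariate, Cenpj became -0.052, Cenpm 0.41, Cenpt 0.044, Pmf1 0.043, Zw10 0.15 and Ska2 0.076. With the dividing cell covariate, Cenpj became -0.075, Cenpk 0.0027, Cenpl 0.012, Cenpm 0.64, Cenpt 0.13, Cenpw 0.15, Mis12 0.017, Pmf1 0.14, Zwint 0.0081, Zw10 0.24 and Ska2 0.26. Zw10 was also 0.10 with TPM, 0.057 with quantile scaling and 0.10 without both replicates 3. With 1 library left out, spleen values ran from -0.0085 to 0.10 for Cenpj and from -0.15 to 0.13 for Zw10, and brain values from -0.60 to 0.22 for Zwint (0.19 without both replicates 3) and from -0.054 to 0.19 for Nuf2.

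The sample records do not say whether replicate numbers pair the libraries, and the main fits did not pair them. Deviations of same-numbered Norad+/+ and Norad-/- libraries correlated at 0.061, 0.068 and 0.11 in brain. In spleen they correlated at 0.338, -0.147 and 0.29. As a hint from the data, 6 of 6 libraries correlated best with their own number in brain and 3 of 6 in spleen. With the replicate block, genes called were 1 in brain and 1 in spleen, members lower in spleen 23, members higher in brain 0, and the interaction called 2.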
